A study of Mus musculus with 18 samples.

Results

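The genes described here encode the nuclear subunits of mitochondrial complex I (NADH:ubiquinone oxidoreductase), chosen by symbol: Ndufa, Ndufb, Ndufc, Ndufs or Ndufv followed by a number, with assembly factors and pseudogenes left out and at least 10 counts in at least 3 libraries. Of the 43430 genes in the table, 40 carried such a symbol and 38 met the count limit, with Ndufa11b and Ndufs6b left below it. All 38 had at least 10 counts in each of the 18 libraries and all entered the tests. They comprise 7 core subunits, 9 accessory subunits of the matrix arm, 19 accessory subunits of the membrane arm, Ndufa4 and Ndufa4l2, whose proteins are now assigned to complex IV, and Ndufb4c, a copy of Ndufb4 with 1 exon and 12 to 44 counts per library.

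RNA was sequenced from quadriceps myofibers of adult male and female C57BL/6 mice (C57BL/6J in the study's methods) without a genetic change that had received intraperitoneal vehicle, weekly prednisone or daily prednisone for about a month. Prednisone is a synthetic glucocorticoid, and the comparisons ask how the dosing regimen and sex alter muscle gene expression. By the study's methods each prednisone injection held the same dose per body weight, so daily mice received more in total. The last weekly injection was given days before sacrifice. Dosing interval, total dose and time since the last dose therefore cannot be told apart. The 18 libraries fall into 6 groups of 3, male and female on each of the 3 treatments, with 1 library per mouse. Myofibers were the retained fraction after collagenase digestion and filtering, so cells attached to fibres could be carried along.

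Complex I takes electrons from NADH and passes them through a flavin and a chain of iron-sulfur clusters to ubiquinone, and it pumps protons across the inner mitochondrial membrane as it does so. Its matrix arm carries out the electron transfer, and its membrane arm does the pumping. The core subunits do the catalysis and descend from bacterial proteins, 7 of them encoded in the nucleus and 7 in mitochondrial DNA. The accessory subunits surround the core, stabilise it and are needed for its assembly. In skeletal muscle the complex is most abundant in oxidative fibres and feeds the respiratory chain that supplies ATP during sustained work.

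Total counts ranged from 10506661 to 14686654 per library, and the 38 genes took 0.423% to 0.884% of them. Mitochondrially encoded genes took 11.71% to 36.4% of the counts, and both extremes were in females. The 8 fibre markers were abundant, with summed levels of 127800 to 229100 CPM (counts scaled to the same library size with TMM factors). The 10 adipocyte markers summed to 360.4 to 824.3 CPM in vehicle libraries and to 757 to 6837 CPM in treated libraries. The female weekly libraries lay furthest apart in the level of the complex I genes, with replicate 1 the highest of all 18 libraries.

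Promoter sequences are shown for the genes with the largest fall and the smallest change among those with a RefSeq promoter entry, since the subunits moved together. Each is the stretch before the annotated start of the gene, 5′ to 3′ on the gene's strand in GRCm38.p6. Capitals mark matches to a searched motif, on either strand.
Ndufc1, chr3:51408989-51409205, minus strand: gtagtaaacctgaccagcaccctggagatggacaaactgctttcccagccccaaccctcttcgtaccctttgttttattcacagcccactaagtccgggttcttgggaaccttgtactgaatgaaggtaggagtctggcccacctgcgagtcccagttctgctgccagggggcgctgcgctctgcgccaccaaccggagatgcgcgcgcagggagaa
Ndufs5, chr4:123718203-123718436, minus strand: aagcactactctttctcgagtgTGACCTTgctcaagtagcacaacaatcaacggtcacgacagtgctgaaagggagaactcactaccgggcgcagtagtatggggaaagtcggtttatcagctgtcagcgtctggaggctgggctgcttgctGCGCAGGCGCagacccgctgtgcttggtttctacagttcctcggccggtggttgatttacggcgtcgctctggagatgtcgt
Ndufv1, chr19:4012807-4013005, minus strand: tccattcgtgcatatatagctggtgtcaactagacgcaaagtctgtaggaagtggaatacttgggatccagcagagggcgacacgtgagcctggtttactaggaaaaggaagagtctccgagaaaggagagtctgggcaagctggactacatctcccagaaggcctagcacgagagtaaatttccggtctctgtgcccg

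In Ndufs5 the capitals are a match to the core of the NRF1 motif (GCGCA, any base, then GCGC), which begins 98 bases before the RefSeq start, and further upstream a match to the oestrogen-related receptor letters AAGGTCA on the opposite strand. The stretches shown for Ndufc1 and Ndufv1 held no match, though the full searched window of Ndufc1 held the letters AAGATGGC. NRF1 is a known activator of nuclear genes for the respiratory chain. From 250 bases before to 50 after the start, 7 of the 31 complex I subunit promoters with an entry (22.6%) held the NRF1 letters, against 5.19% of all 27025 genes with a promoter. The YY1 letters AAGATGGC were in 7 of 31, against 3.19% of all genes. The ETS letters CCGGAAG, bound by GABPA, were in 4 of 31 (9.93% of all genes). AAGGTCA was in 3 of 31 (5.38% of all genes). The glucocorticoid response element letters ACANNNTGT were in 0 of 31 (7.9% of all genes). Both strands were read, none of these motifs contains another, and matches are a description of letters in a window. Ndufa2, Ndufa4l2, Ndufb4c, Ndufb9 and Ndufs1 were among the members with no entry in the table of promoters used here.

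Daily prednisone in males lowered most complex I subunit mRNAs. In edgeR's quasi-likelihood test with Benjamini-Hochberg adjustment over 13596 genes, 25 of 38 fell and 0 rose at an adjusted p under 0.05, while 6.46% of all tested genes passed in this comparison, 4.38% lower and 2.07% higher. DESeq2 called 31 members lower (6.66% of all genes) and limma-voom 26 (4.38% of all genes), both with 0 higher. The count fell to between 2 and 16 when 1 library was left out (0.441% to 2.01% of all genes lower). It fell to 8 with length and GC trends removed (0.838% of all genes lower) and to 1 with an adipocyte marker covariate (0.191% of all genes lower). In edgeR 0 were higher at an unadjusted p under 0.05 (10.6% of all genes). All 38 had a log2 fold change below 0 (45.5% of all genes), with a median of -0.76, whereas the median over all genes was 0.05. The 3 daily libraries lay entirely below the 3 vehicle libraries for 36 of 38 genes (17.1% of all genes). The range ran from -1.24 for Ndufa2 to -0.05 for Ndufs1. In bulk RNA, a smaller share of one cell or fibre type and less mRNA per fibre cannot be told apart.

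**Figure D1:**
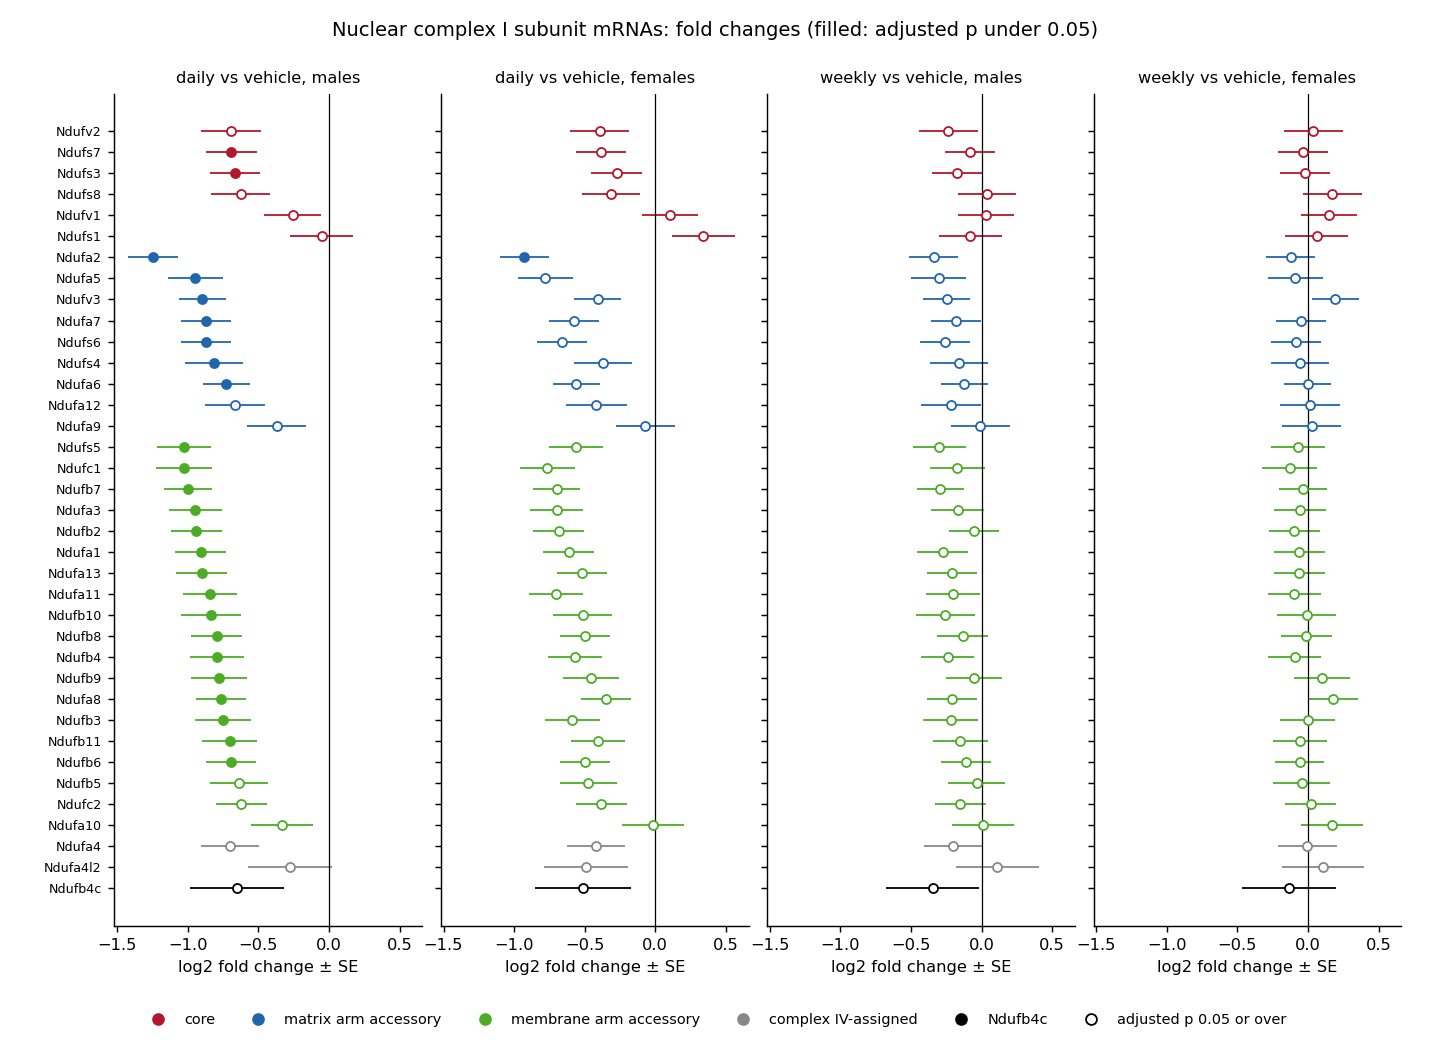
Log2 fold change (x axis, ± SE) of 37 of the 38 genes (y axis, grouped by class and ordered by the male daily response) in the 4 comparisons with vehicle. Filled points have an adjusted p under 0.05. In males on daily prednisone all 37 points lie left of 0 and 25 are filled, while 1 is filled in females and 0 on weekly prednisone.

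Among the matrix arm accessory subunits, 7 of 9 fell in males on daily prednisone, with a class median of -0.87. Ndufa2, a small thioredoxin-like subunit of the NADH-oxidising module, gave 139.6, 131.7 and 156.7 CPM in male vehicle libraries and 71.47, 53.88 and 55.32 CPM in male daily libraries. The groups were well apart, and the log2 fold change was -1.24 ± 0.18 (SE, n = 3 per group, adjusted p by edgeR = 0.00578). Ndufa5, an accessory subunit of the ubiquinone-reducing module, gave 165.5, 152.7 and 176.9 CPM on vehicle and 83.28, 69.35 and 104.3 CPM on daily prednisone. Every daily library of Ndufa5 lay below every vehicle library, and it fell by 0.95 on the log2 scale (adjusted p by edgeR = 0.0126). Ndufs4, Ndufs6, Ndufv3, Ndufa6 and Ndufa7 also fell, between -0.90 and -0.73. Ndufa12 (-0.67) and Ndufa9 (-0.37), a dehydrogenase-like subunit that sits at the base of the matrix arm, did not pass the test.

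Of the membrane arm accessory subunits, 16 of 19 fell, with a class median of -0.80. Ndufs5, which lies on the intermembrane-space face, gave 120.1, 107.3 and 121.5 CPM on vehicle and 54.09, 49.98 and 67.17 CPM on daily prednisone, with a log2 fold change of -1.03 ± 0.19 (adjusted p by edgeR = 0.00885). Ndufc1, a single-span membrane subunit, gave 134.7, 135.4 and 143.6 CPM on vehicle and 75.01, 62.12 and 65.7 CPM on daily prednisone (-1.03 ± 0.20, adjusted p by edgeR = 0.0104). In both genes every daily library lay below every vehicle library. The upstream stretches of both genes are printed above. The searched window of Ndufc1, which reaches past the printed stretch, held the YY1 letters. Ndufb7, another subunit of the intermembrane-space face, gave 180.3, 149.1 and 172.8 CPM on vehicle and 86, 73.62 and 92.24 CPM on daily prednisone (-0.996 ± 0.169, adjusted p by edgeR = 0.00772). The other 13 that fell lay between -0.95 (Ndufa3) and -0.69 (Ndufb6). The 3 that did not pass were Ndufb5 (-0.64), Ndufc2 (-0.62) and Ndufa10 (-0.33), a subunit with a nucleoside kinase-like fold on the matrix face.

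The 7 nuclear core subunits had a class median of -0.63, and 2 of them fell. Both calls were lost when any 1 of the 6 male vehicle and daily libraries was left out, and when length and GC trends were removed (-0.26 for Ndufs7 and -0.34 for Ndufs3). Ndufs7, an iron-sulfur subunit next to the ubiquinone site, gave 274.7, 248.5 and 257.7 CPM on vehicle and 173.2, 140.4 and 170.3 CPM on daily prednisone (-0.69 ± 0.18, adjusted p by edgeR = 0.0315). Ndufs3, a core subunit of the ubiquinone-reducing module, gave 238.3, 226.1 and 217.5 CPM on vehicle and 155.4, 127.4 and 147.4 CPM on daily prednisone (-0.66 ± 0.18, adjusted p by edgeR = 0.0354). In both genes the groups did not overlap. The iron-sulfur subunits Ndufv2 (-0.69 ± 0.21) and Ndufs8 (-0.63 ± 0.21) had adjusted p values by edgeR of 0.0611 and 0.0802, and their groups did not overlap either.

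Ndufs1 and Ndufv1 stood at the other end of the list. Ndufs1, the largest nuclear core subunit, which holds several iron-sulfur clusters, gave 266.6, 256.8 and 230.9 CPM in male vehicle libraries and 239.1, 197.3 and 291.6 CPM in male daily libraries. The groups overlapped, and the log2 fold change was -0.05 ± 0.22 (adjusted p by edgeR = 0.914). Ndufv1, the flavin-bearing subunit that binds NADH, gave 265.3, 249.9 and 233.6 CPM on vehicle and 219.8, 176.5 and 230.1 CPM on daily prednisone (-0.26 ± 0.20, adjusted p by edgeR = 0.468). Its daily libraries were all below the vehicle libraries, with the highest daily library close to the lowest vehicle library. Ndufs1 lies at chr1:63143596-63176833 on the minus strand (mm10). Its exons share 498 of 8086 bases with genes on the opposite strand, and the strand setting of the counting is not stated.

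**Figure D2:**
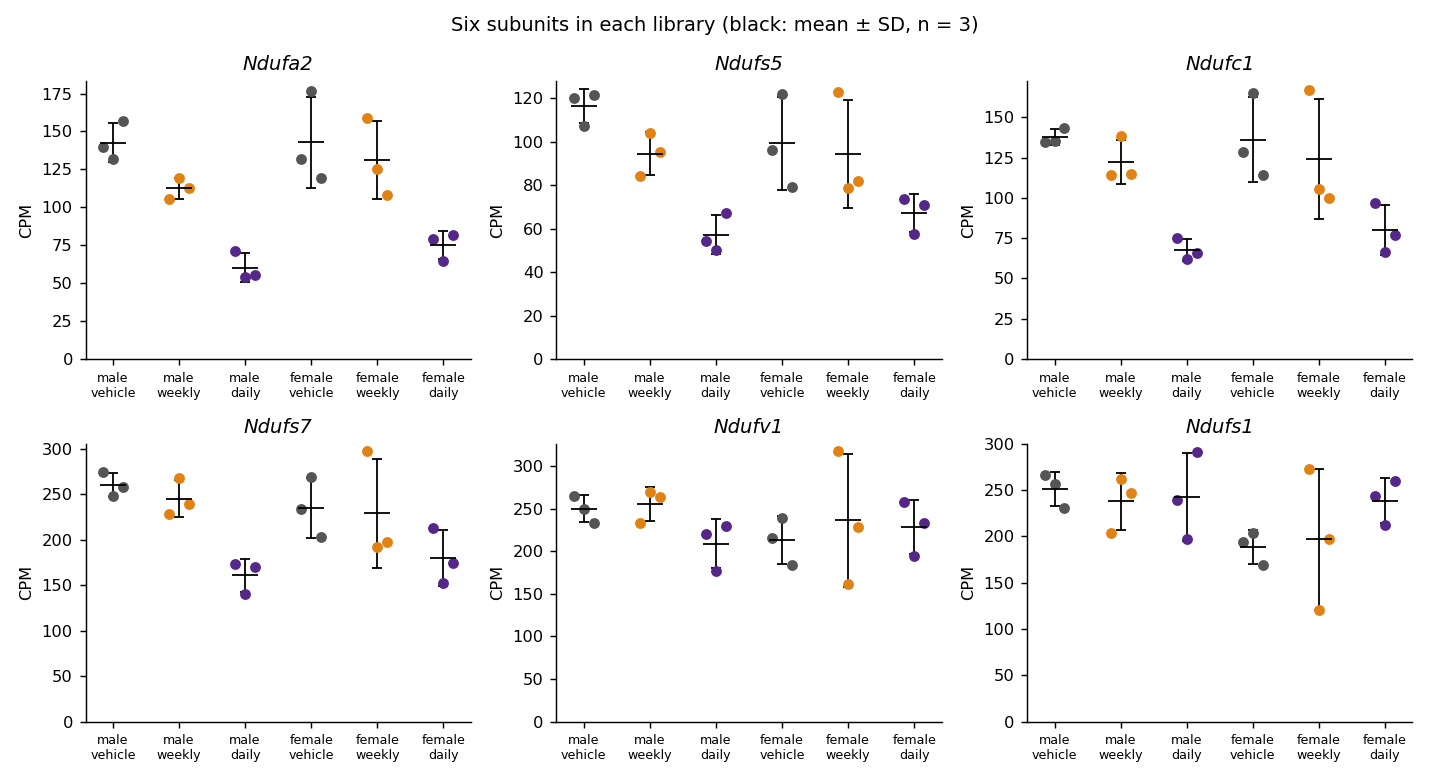
CPM (y axis) of 6 subunits in each library, by group (x axis), with the mean ± SD in black. Daily libraries are lowest in males for Ndufa2, Ndufs5, Ndufc1 and Ndufs7, while Ndufv1 and Ndufs1 lie much closer to vehicle, and the daily libraries of Ndufs1 in females lie above it.

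Ndufa4, Ndufa4l2 and Ndufb4c gave no call by edgeR in males on daily prednisone. Ndufa4, a complex IV subunit, gave 382.8, 349 and 357.6 CPM in male vehicle libraries and 234.4, 194.6 and 240.6 CPM in male daily libraries. These groups did not overlap, with -0.70 ± 0.21 and an adjusted p by edgeR of 0.0527, and DESeq2 and limma-voom both called Ndufa4 lower. Its paralogue Ndufa4l2, known as a hypoxia-inducible gene, gave 9.39, 10.8 and 14.4 CPM on vehicle and 7.3, 13.8 and 7.15 CPM on daily prednisone, with overlapping groups (-0.28 ± 0.30). Ndufb4c was at -0.65 ± 0.33, and its reads may be shared with Ndufb4. Ndufab1, the mitochondrial acyl carrier protein that is also bound to complex I, does not match the symbol rule. It gave 188.4, 151.2 and 169.4 CPM on vehicle and 104.8, 81.54 and 121.6 CPM on daily prednisone (-0.73 ± 0.21, adjusted p by edgeR = 0.0505).

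Daily prednisone in females gave 1 call among these genes. Ndufa2 fell, from 131.9, 176.9 and 119.6 CPM in vehicle libraries to 79.4, 64.29 and 81.44 CPM in daily libraries (-0.93 ± 0.17, adjusted p by edgeR = 0.0429). The groups did not overlap. Of all tested genes 0.382% passed in this comparison, 0.25% lower and 0.132% higher. The call was lost without female vehicle replicate 1 or 2 or female daily replicate 2 or 3, with 0 calls in each (0% of all genes lower). Without female vehicle replicate 3, 2 members were called (0.267% of all genes lower). DESeq2 called 10 members lower (1.77% of all genes) and limma-voom 1 (0.25% of all genes), and at an unadjusted p under 0.05 edgeR had 22 of 38 lower (7.66% of all genes) and 0 higher (9.65% of all genes). In total 36 of 38 log2 fold changes were below 0 (49.2% of all genes), with a median of -0.49 against 0.01 over all genes. The 3 daily libraries lay below the 3 vehicle libraries for 26 genes (10.2% of all genes) and above them for 1 (12.9% of all genes).

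After Ndufa2, the lowest female values were those of Ndufa5 and Ndufc1, and the highest those of Ndufs1, Ndufv1 and Ndufa10. Ndufa5 gave 142.3, 179.2 and 123.1 CPM in female vehicle libraries and 86.62, 80.78 and 91.71 CPM in female daily libraries (-0.78 ± 0.19, adjusted p by edgeR = 0.0741). Ndufc1 gave 128.5, 165.3 and 114.3 CPM on vehicle and 96.91, 66.56 and 76.73 CPM on daily prednisone (-0.76 ± 0.20, adjusted p by edgeR = 0.0774). In neither gene did the groups overlap, and neither passed the test. Ndufs1 was the gene that lay above, with 194, 203.4 and 168.7 CPM on vehicle and 243.7, 212.6 and 259.7 CPM on daily prednisone (0.34 ± 0.22, adjusted p by edgeR = 0.457). Ndufv1 (0.10 ± 0.20) and Ndufa10 (-0.02 ± 0.22) came next, both with overlapping groups. The core subunits Ndufs3, Ndufs7, Ndufs8 and Ndufv2 lay between -0.39 and -0.27, and the class medians were -0.27 for core, -0.56 for matrix arm accessory and -0.52 for membrane arm accessory subunits.

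With the mean of both sexes, 31 of 38 fell on daily prednisone (7.47% of all genes) and 0 rose (7.48% of all genes), by edgeR, where 15% of all genes passed. In all, 37 of 38 values were below 0 (47.1% of all genes), with a median of -0.61, and 0 were higher at an unadjusted p under 0.05 (15.5% of all genes). DESeq2 called 32 lower (8.91% of all genes), limma-voom 31 (7.41% of all genes), and neither called any member higher. The 31 were 4 of 7 core subunits, 8 of 9 in the matrix arm, 18 of 19 in the membrane arm, and Ndufa4. Ndufa2 had the lowest value (-1.09 ± 0.12, adjusted p by edgeR = 0.000378). Ndufs1, Ndufv1, Ndufa9, Ndufa10, Ndufa4l2 and Ndufb4c were among the 7 that did not pass.

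The female and male responses to daily prednisone were compared by an interaction term, female minus male. None of the 38 passed in edgeR, DESeq2 or limma-voom, none had an unadjusted p under 0.05 (2.57% of all genes lower and 2.13% higher), and 0% of all genes passed in edgeR. The differences were above 0 for 37 of 38 genes and below 0 for 1 (47.4% of all genes below), with a median of 0.30 on the log2 scale. The highest was Ndufv3 (0.49 ± 0.24, adjusted p by edgeR = 0.889). In vehicle libraries, 31 of 38 log2 fold changes, females against males, were below 0 (46.6% of all genes), with a median of -0.16. None of these passed in edgeR, DESeq2 or limma-voom (0.765% of all genes passed in edgeR), and 3 had an unadjusted p under 0.05, Ndufs4 and Ndufa8 among them, all lower (5.72% of all genes). The average log2 CPM over the 38 genes was 6.54 ± 0.16 in females and 6.43 ± 0.17 in males on daily prednisone, and 6.99 ± 0.22 and 7.17 ± 0.06 on vehicle (SD, n = 3).

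**Figure D3:**
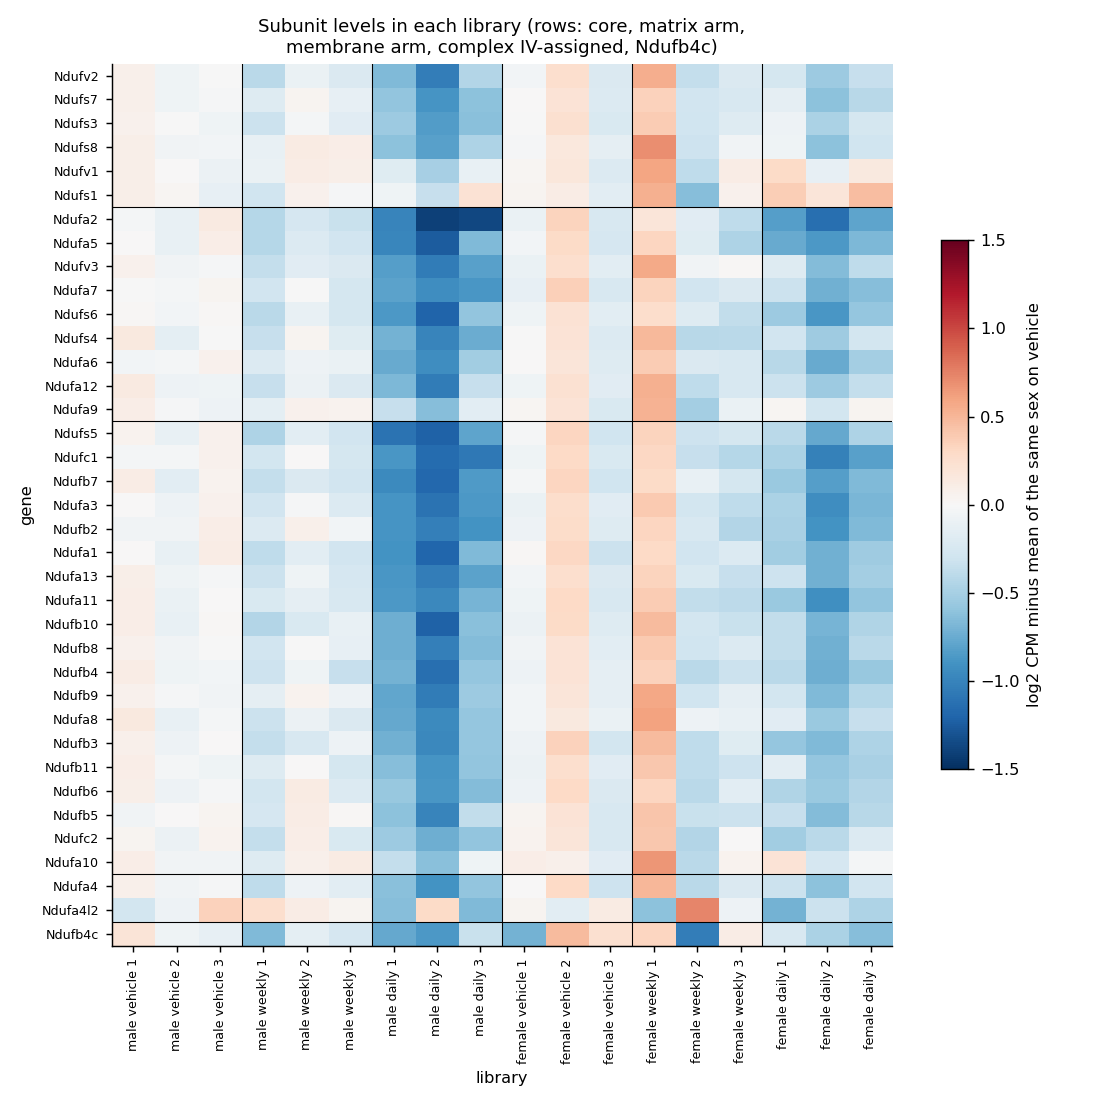
Level of 37 of the 38 genes (rows) in each library (columns), as log2 CPM minus the mean of the same sex on vehicle. The male daily columns are blue for nearly all rows, and the female daily columns for nearly all rows other than Ndufs1, Ndufv1, Ndufa9 and Ndufa10. Female weekly replicate 1 is red for nearly all, and Ndufa4l2 differs from the rows around it.

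Weekly prednisone gave no call. In males 34 of 38 log2 fold changes were below 0 (48.4% of all genes), with a median of -0.17 and a range of -0.35 to 0.11. None passed in edgeR, DESeq2 or limma-voom, and none had an unadjusted p under 0.05 (2.71% of all genes lower and 3.01% higher, and 0% of all genes passed in edgeR). Weekly libraries lay below vehicle for 14 genes (8.97% of all genes) and above it for 0 (7.76% of all genes). Among them was Ndufa2, with 105.6, 119.4 and 112.9 CPM on weekly prednisone (-0.34 ± 0.17, adjusted p by edgeR = 0.849). Ndufs5 (-0.30 ± 0.19) and Ndufa5 (-0.31 ± 0.19) were also among the 14, and Ndufb4c had the lowest value (-0.35 ± 0.33). Ndufa4l2 (0.11), Ndufs8 (0.04) and Ndufv1 (0.03) were the highest.

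In females on weekly prednisone the median was -0.04, with 26 of 38 below 0 (48.6% of all genes) and a range of -0.14 to 0.19. None passed in edgeR, DESeq2 or limma-voom, and none had an unadjusted p under 0.05 (2.29% of all genes lower and 5.67% higher, and 0% of all genes passed in edgeR). For none of the 38 were the groups apart, in either direction (3.13% of all genes lower, 4.94% higher). Ndufv3 (0.19), Ndufa8 (0.18) and Ndufs8 (0.17) had the highest values and Ndufb4c, Ndufc1 (-0.13) and Ndufa2 (-0.12) the lowest. The spread between these libraries was wide. Ndufs1 gave 273.3, 120.8 and 196.9 CPM, and Ndufs8 gave 155.3, 77.06 and 92.26 CPM, with replicate 1 the highest for both. Without female weekly replicate 1 the median was -0.29. The interaction term for the weekly response, female minus male, also gave no call in edgeR, DESeq2 or limma-voom, and none at an unadjusted p under 0.05 (0.927% of all genes lower and 1.7% higher, and 0% passed in edgeR), with a median of 0.15. That median was -0.12 without female weekly replicate 1. In the mean of both sexes on weekly prednisone the median was -0.10, and -0.24 without the same library, with 32 of 38 below 0 (46.5% of all genes). None passed in edgeR, DESeq2 or limma-voom or had an unadjusted p under 0.05 (4.57% of all genes lower and 6.4% higher, and 0% passed in edgeR).

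Daily and weekly dosing were compared directly within each sex. In males 37 of 38 values were below 0 (49.3% of all genes), with a median of -0.60, and daily libraries lay below weekly libraries for 33 genes (12.7% of all genes). None passed in edgeR or limma-voom (0% of all genes in edgeR), and DESeq2 called 17 lower (0.934% of all genes). In edgeR 30 had an unadjusted p under 0.05 (7.05% of all genes), all lower, with 0 higher (6.41% of all genes). Ndufa2 had the lowest value (-0.90 ± 0.18, adjusted p by edgeR = 0.119). In females 37 of 38 values were below 0 (53.8% of all genes), with a median of -0.49, and daily libraries lay below for 20 genes (7.34% of all genes). None passed in edgeR or limma-voom (0% of all genes in edgeR), and DESeq2 called 10 lower (1.71% of all genes). In edgeR 23 had an unadjusted p under 0.05 (8.63% of all genes), all lower, with 0 higher (9.03% of all genes). Same-numbered female weekly and daily libraries deviated together, although each came from a different mouse and the labels do not pair them. In a fit blocked by this number, chosen after seeing that pattern, 10 of 38 members were called lower in edgeR (1.68% of all genes). The block was drawn from these same data, so these calls are given as a description only. With length and GC trends removed as well, 0 were called in that fit (0.0294% of all genes). Without female weekly replicate 1 the female median was -0.21. The comparisons with vehicle share the vehicle libraries, and these comparisons share the daily libraries with them.

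Within a library, core and accessory subunits did not shift equally. The mean log2 CPM of the 7 core subunits was higher than that of the 28 accessory subunits in all libraries, by 0.612 to 0.818 in the 6 vehicle libraries, by 0.59 to 0.882 in the 6 weekly libraries and by 0.981 to 1.098 in the 6 daily libraries. In this difference all daily libraries of both sexes lay above all vehicle and weekly libraries. The accessory mean went from 7.23 ± 0.06 to 6.42 ± 0.19 in males and from 7.08 ± 0.23 to 6.56 ± 0.16 in females (SD, n = 3). The core mean went from 8.01 ± 0.08 to 7.50 ± 0.20 in males and from 7.75 ± 0.19 to 7.59 ± 0.21 in females. No p-value was computed for these class means.

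**Figure D4:**
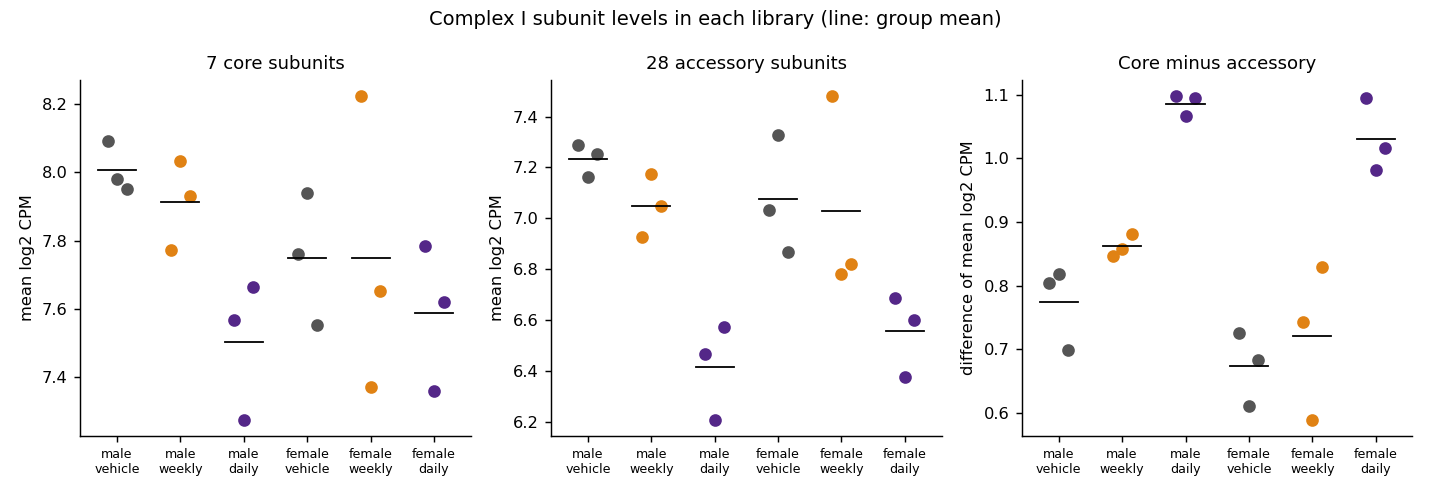
Mean log2 CPM of the 7 core subunits (left) and of the 28 accessory subunits (middle) and their difference (right) in each library, by group, with group means as lines. The difference lies between 0.981 and 1.098 in the daily libraries and at or below 0.882 in all others.

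Transcript length differed between these classes and moved with the response. The median length of the principal transcript was 1623 bases for core, 875 for matrix arm accessory and 732 for membrane arm accessory subunits. Across the 38 genes, Pearson's r between log2 length and the log2 fold change on daily prednisone was 0.41 in males and 0.53 in females. Without Ndufs1 it was 0.31 and 0.44. These values are a description over genes that share libraries. After length and GC trends were taken out within libraries, edgeR called 8 of 38 lower in males (0.838% of all genes) and 0 in females (0.00736% of all genes). The medians were then -0.39 in males and -0.24 in females, and 37 and 34 of 38 values were below 0. The class medians in males became -0.26 for core, -0.44 for matrix arm and -0.43 for membrane arm accessory subunits, and in females -0.06, -0.26 and -0.30. The 8 calls in males were Ndufa1, Ndufa2, Ndufa3, Ndufb2, Ndufc1, Ndufs4, Ndufs5 and Ndufv3. Principal transcripts of different length exist for Ndufb2, so its corrected value of -1.13 is uncertain.

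**Figure D5:**
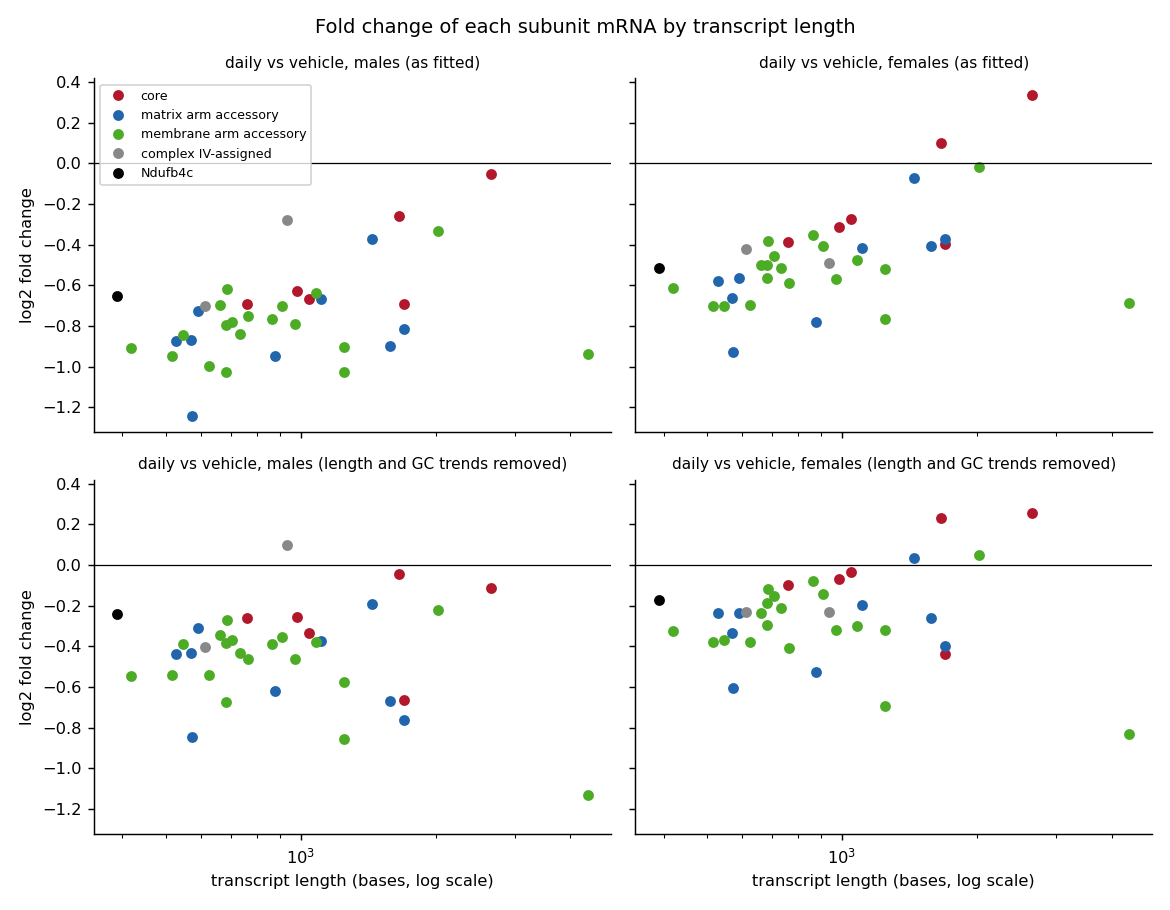
Log2 fold change on daily prednisone (y axis) against principal transcript length in bases (x axis, log scale) for 37 of the 38 genes, as fitted (top) and with length and GC trends removed (bottom), coloured by class. Ndufs1 (2661 bases) and Ndufv1 (1661 bases) lie highest at the top, while Ndufv2 (1697 bases) and Ndufs4 (1698 bases) lie lower. Most values move towards 0 at the bottom while nearly all in males remain below it.

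Levels of different genes were compared as CPM per kilobase of the principal transcript, in male vehicle libraries. Ndufa4 was the highest (595.3 ± 28.8, SD, n = 3), followed by Ndufb9 (472.9 ± 18.1) and Ndufb8 (470.6 ± 19.4), whose ranges overlapped each other but not that of Ndufa4. Ndufs1 (94.5 ± 6.94) and Ndufs8 (96.8 ± 4.94) were the lowest core subunits, while Ndufv1 was at 150.3 and Ndufs7 at 343.4. Ndufa4l2 (12.3 ± 2.75) and Ndufb4c (7.92 ± 0.954) were far below. Ndufb2 was left out of this order because of its transcripts of different length, and Ndufb8 and Ndufb9 share exon bases with a same-strand gene model.

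The 38 genes varied together between libraries of the same group. Over the 18 libraries, as deviations from group means, the median Pearson's r of a gene with the other members was 0.719 to 0.944 for 36 genes, with Ndufb8 the highest, and 0.555 for Ndufb4c. Ndufa4l2 had a median of -0.754. In female weekly libraries, Ndufa4l2 gave 8.31, 21.1 and 12.1 CPM where Ndufa4 gave 417.8, 224.3 and 255.1 CPM, so the library with most Ndufa4 had least Ndufa4l2. These values share the library scaling and are given as a description with no test.

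Other genes of complex I and its neighbours were read from lists. Of 15 tested assembly factors, 1 fell (4.38% of all genes) and 0 rose (2.07% of all genes) in males on daily prednisone, with a median of -0.35. This was Ndufaf8 (-0.88 ± 0.18, adjusted p by edgeR = 0.0123), and the next lowest value was that of Ndufaf5 (-0.55). In females 0 of 15 passed in edgeR (0.382% of all genes), with a median of -0.03. At an unadjusted p under 0.05 in edgeR, 2 were lower (7.66% of all genes) and 1 higher (9.65% of all genes). Ndufaf8 was at -0.54, Ndufaf5 at -0.44, Tmem186 at 0.22 and Foxred1 at 0.40. Of the 7 complex I genes in mitochondrial DNA, 1 fell in males (4.38% of all genes), mt-Nd3 (-1.13 ± 0.29, adjusted p by edgeR = 0.0302). All 7 values were below 0 (45.5% of all genes), with a median of -0.59 and mt-Nd4l next lowest at -0.91. In females 0 of 7 passed in edgeR (0.382% of all genes), and 6 were lower at an unadjusted p under 0.05 (7.66% of all genes). All 7 were below 0 (49.2% of all genes), with a median of -0.89, led by mt-Nd3 (-1.29) and mt-Nd6 (-1.23). These libraries were made from polyadenylated RNA, and mt-Nd3 was at 4.07 to 17.5 CPM.

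Of the 4 complex II subunits, Sdhd, a membrane anchor, fell in males (-0.62 ± 0.16, adjusted p by edgeR = 0.0343), while Sdha, the flavoprotein, was at 0.01 ± 0.21. In females 0 of 4 passed in edgeR (0.382% of all genes), and Sdha was at 0.35. None of the 4 had an unadjusted p under 0.05 there (7.66% of all genes lower and 9.65% higher). Among 6 regulators of respiratory chain genes, Gabpa, which encodes the DNA-binding subunit of an ETS factor, rose in males, from 14.4, 17.3 and 18.5 CPM on vehicle to 22.5, 23.2 and 31.9 CPM on daily prednisone (0.63 ± 0.16, adjusted p by edgeR = 0.0326). In females Gabpa was at 0.59 ± 0.16 (adjusted p by edgeR = 0.0881). The coactivator gene Ppargc1a was at 1.08 ± 0.46 in males and 0.41 ± 0.46 in females, Ppargc1b at 0.60 and 1.63, and Esrra, the oestrogen-related receptor alpha gene, at -0.53 and 0.09, none past the test. Tfam, the mitochondrial transcription factor A gene, was at -0.18 in both sexes. Nrf1, whose motif was searched in the promoters, gave 11.76, 10.69 and 11.25 CPM in male vehicle and 11.82, 12.39 and 10.09 CPM in male daily libraries. In females it gave 10.16, 14.56 and 8.955 CPM on vehicle and 11.52, 11.51 and 11.6 CPM on daily prednisone, and the groups overlapped in both sexes.

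Markers of other cell and fibre types differed between libraries. For the 10 adipocyte markers the median log2 fold change on daily prednisone was 2.46 (males) and 2.98 (females), and on weekly prednisone 2.19 and 3.51. On daily prednisone edgeR called 0 of the 10 in males, where 6 were higher at an unadjusted p under 0.05 (10.6% of all genes). In females it called 1 (0.382% of all genes). On weekly prednisone 0 of 10 were called in either sex or in the mean of both (0% of all genes). At an unadjusted p under 0.05, 6 in males (3.01% of all genes) and 10 in females (5.67% of all genes) were higher on weekly prednisone. Their summed level was 360.4 to 653.1 CPM in male vehicle, 757 to 1873 in male daily and 806.7 to 1481 in male weekly libraries. In females it was 727.5 to 824.3 CPM on vehicle, 1216 to 4092 on daily and 971.3 to 6837 on weekly prednisone. Adiponectin (Adipoq) and perilipin (Plin1) were among the 8 of 10 that rose by edgeR on daily prednisone in the mean of both sexes (7.48% of all genes). With the adipocyte marker level as a covariate, 1 of 38 complex I genes was called lower in males on daily prednisone and 0 in the mean of both sexes, with medians of -0.89 and -0.76. Calls over all genes dropped in that fit too, from 878 to 42 in males and from 2033 to 0 in the mean of both sexes. The 5 haemoglobin and red cell markers were below 0 on daily prednisone, with medians of -0.42 in males and -0.83 in females. The 9 slow-fibre markers had medians of 1.14 and 0.61 on daily and of 3.14 and 4.63 on weekly prednisone, with 0 of 9 called by edgeR in any of these and, at an unadjusted p under 0.05, 0 in both sexes on daily and 2 in males and 8 in females on weekly prednisone. Their summed level in female weekly libraries was 2312, 232.7 and 194.3 CPM, with replicate 1 far above the others, and that library was also the highest for complex I genes. In male weekly libraries the highest sum was 574.2 CPM and the others were 165.1 and 227.4 CPM. Of the 8 fibre markers in males on daily prednisone, 1 fell by edgeR (4.38% of all genes), Pvalb, for parvalbumin (-1.10 ± 0.20, adjusted p = 0.00858). In all 5 were below 0 and 3 above, Myh1 (0.72 ± 0.70), Myh4 (0.09) and Atp2a1 (0.06). Acta1, Ckm, Tnnt3 and Mylpf were the others below 0. None of them was called, but in each every daily library lay below every vehicle library (17.1% of all genes). Acta1 gave 38240, 32340 and 28880 CPM on vehicle and 23880, 22910 and 24450 CPM on daily prednisone. Mylpf gave 10500, 9461 and 8370 CPM on vehicle and 5798, 5927 and 5964 CPM on daily prednisone. The adipocyte covariate, a mean log2 CPM, was 2.84 to 3.82 in male vehicle and 4.71 to 6.13 in male daily libraries. In females it was 3.90 to 3.93 on vehicle and 5.46 to 7.62 on daily prednisone. The covariate thus moved with treatment, and the fit that used it cannot tell the adipocyte marker level from treatment. The part of these cell and fibre types in the fall of complex I genes was not tested.

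The count of 25 calls in males moved with each library left out. Without male daily replicate 2, which had the lowest average of complex I genes, 2 were called (0.601% of all genes lower). The count was 12 without male daily replicate 1 (1.64% of all genes lower) and 11 without replicate 3 (0.791%). Without male vehicle replicates 1, 2 and 3 it was 6, 16 and 12 (0.441%, 2.01% and 1.41% of all genes lower). Calls over all genes thus dropped in these fits too, from 878 to between 92 and 414. The median stayed between -0.82 and -0.66. Ndufa2 and Ndufb7 were called in all 6 of these fits. In the mean of both sexes the count ranged from 26 to 32 (4.65% to 9.29% of all genes lower), and 26 of the 31 genes were called whichever library was left out.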

How the data were processed

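Polyadenylated RNA of quadriceps myofibers was sequenced in 18 libraries, 1 per mouse. The authors aligned the reads to mm10 and deposited whole-number read counts per gene with no normalization. The submitters' processing notes name TopHat2 2.1.0, Bowtie2 2.2.6 and HTSeq, and list mm9 beside mm10. The strand setting and annotation release are not given in the sources used here, so genes that share exon bases or near-identical copies with others are uncertain.

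Counts were fitted in R 4.3.3 with edgeR 4.0.16: filterByExpr with a minimum count of 10, TMM factors, and robust quasi-likelihood fits with a mean for each of 6 groups over 18 libraries. P-values were adjusted over 13596 genes. DESeq2 1.42.0 and limma 3.58.1 served as alternatives, with other filters and scalings, compared groups alone, a replicate block, marker covariates, length and GC trends, and each library left out. Libraries held 10506661 to 14686654 counts, and the biological coefficient of variation was 0.224. Transcript lengths are from GENCODE M21 and promoters from RefSeq. The fits were tested on simulated data.

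The 38 members and the gene lists were chosen with earlier results of these data known. Named genes are the 7 nuclear core subunits, the 3 lowest and 3 highest members in each comparison with vehicle within a sex, Ndufa4, Ndufa4l2 and Ndufab1, and others are named where a count is given. Of these, 1 core subunit enters the fits and counts and is otherwise not reported here. Replicate numbers come from the sample titles. Deviations from group means over genes correlated by 0.501, 0.483 and 0.439 in the same-numbered female weekly and daily libraries, so a block by number was also fitted there. The labels do not say that same-numbered libraries share anything, and each is a different mouse. No other pair of groups had all 3 correlations over 0.1.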

Additional observations from a re-analysis of the deposited data

How the results depend on the processing

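No called value changed sign. Percentages here are the share of all genes called lower in the same fit. For males on daily prednisone (25 calls), the adipocyte covariate gave 1 (0.191%, median -0.89). With length and GC trends removed 8 were called (0.838%, median -0.39), and leaving out 1 library gave 2 to 16 (0.441% to 2.01%). For females on daily prednisone (1 call, 0.25%), DESeq2 gave 10 (1.77%) and the stricter filter 4 (1.07%). Removing mitochondrially encoded genes, fitting the compared groups alone, the replicate block, either marker covariate, or removing length and GC trends (median -0.24) gave 0 (0% to 0.0294%). Leaving out 1 library gave 0 to 2 (0% to 0.368%). For the mean of both sexes (31 calls), the adipocyte covariate gave 0 (0%, median -0.76) and the length and GC correction 18 (3.13%, median -0.32). For daily against weekly males (0 calls), DESeq2 gave 17 (0.934%) and the compared groups alone 1 (0.0233%), and the corrected median was -0.33. For daily against weekly females (0 calls), DESeq2 gave 10 (1.71%), the stricter filter 2 (0.91%), and the replicate block within the female libraries 10 (1.68%). That block with the length and GC correction gave 0 calls (0.0294%) and a median of -0.20, and the correction alone gave a median of -0.21.

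Leaving out 1 library moved the median between -0.29 and 0.082 for weekly females, between -0.59 and -0.21 for daily against weekly females, and between -0.12 and 0.25 for the female minus male weekly response, so the first and last, which rest on no call, changed sign. The values -0.29, -0.21 and -0.12 were without female weekly replicate 1. The cause of these shifts was not tested. The 2 blocks within the female libraries and the class medians under other settings were chosen after seeing the data. Over all libraries, the replicate block changed no other count. All 25 calls in males were also made by DESeq2 and limma-voom. With 3 libraries a group, the median standard error of these genes was 0.19 in males, which limits what can be seen on weekly prednisone.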
